A study of Homo sapiens with 6 samples.

Results

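The genes for cytosolic translation initiation and elongation factors were described in ME180 cells, a human cervical cancer line of epithelial morphology, after knockdown of SGK1. They were taken as every protein-coding gene of the table whose symbol begins with EIF followed by a digit from 1 to 6, or with EEF1 or EEF2, leaving out symbols that contain AK (the eIF2 kinases and the eEF1A methyltransferases). The rule found 61 genes of 58302 in the table, of which 19847 are protein-coding, and it used no measured value. The cells carried either siControl, a control small interfering RNA (3 libraries), or siSGK1, a small interfering RNA directed at SGK1, a serum- and glucocorticoid-induced kinase (3 libraries), for 48 h. The libraries of a group are described as biological repeats and are numbered 2, 3 and 4. All 6 libraries come from 1 line, and the small interfering RNA sequences are not known from the sources used here. Values are FPKM, reads per gene scaled to gene length and to a library size, from polyA RNA.

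SGK1 itself measured 3.91, 4.27 and 4.17 FPKM in siControl and 1.58, 1.70 and 1.81 FPKM in siSGK1, 41.2% of the control mean (log2 change −1.07, SE 0.07, limma adjusted p = 1.88e-05; exact permutation p = 0.1, the smallest that 3 against 3 libraries allow). Libraries held 27262794 to 27874948 reads in siControl and 28405647 to 35242643 in siSGK1. All 6 epithelial markers checked were present, led by KRT5, with summed levels of 7008 to 7451 FPKM in siControl and 4933 to 5737 in siSGK1. Of 6 fibroblast markers only COL1A1 (5.15 FPKM) reached 1 FPKM, and none of 5 leukocyte and 3 endothelial markers did. In bulk RNA, fewer cells of a kind and less RNA per cell cannot be told apart.

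Translation begins when eIF2, bound to GTP, brings the initiator tRNA to the small ribosomal subunit. eIF1 and eIF1A guard the choice of start codon, eIF3 forms the scaffold on the subunit, and the eIF4 proteins bind the mRNA cap and unwind the leader. eIF2B reloads eIF2 with GTP and is the step that stress kinases block through phosphorylated eIF2. In elongation, eEF1A delivers each aminoacyl-tRNA, the eEF1B subunits reload eEF1A, and eEF2 moves the ribosome along the mRNA. Many of these mRNAs, like those of ribosomal proteins, begin with a C followed by a run of pyrimidines. This 5′ terminal oligopyrimidine (TOP) start is the feature through which mTORC1 signalling controls their translation.

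Most of the factor genes changed little. Of the 61 genes, 55 had a mean of at least 1 FPKM and were tested. With limma and an adjusted p below 0.05 as the call, 20 of the 55 (36.4%) were called, against 40.6% of all 11945 tested genes. Calls were 5 higher (9.09%, against 17.9% of all genes) and 15 lower (27.3%, against 22.7%). The median log2 change of the 55 was −0.05, against −0.01 over all tested genes, and only EIF3K and EIF5A2 were called with a log2 change larger than that of EEF1B2 (−0.32). The split of the calls depends on how the libraries are put on one scale. The deposited FPKM carry size-factor scaling. Scaling to total reads, which moved the median of all genes to 0.12, gave 16 higher and 4 lower, and scaling to TPM (FPKM rescaled to a fixed sum), which moved it to 0.18, gave 26 and 4. Quantile normalization gave 11 and 7. The members' median relative to that of all genes stayed below 0 in each: −0.05 as deposited, −0.01 with quantile normalization, −0.04 with total reads and −0.03 with TPM.

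Under every alternative that gave them a value, 8 calls kept their sign and side of the threshold. EEF1B2, EIF3K, EIF4EBP1 and EIF5A2 were lower, and EIF2B1, EIF2B2, EIF3B and EIF3F were higher. Their sizes depended on the scaling: over the alternatives EIF5A2 ran from −0.94 to −0.53, EIF2B1 from 0.22 to 0.44, EIF2B2 from 0.28 to 0.50, EIF3B from 0.27 to 0.48 and EIF3F from 0.22 to 0.46. Their values by library are in the plot of the 8 genes.

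Start sites are shown for 6 of these genes and for EEF1A1 and EEF2, since the TOP start is shared by elongation factors, some eIF3 genes and ribosomal protein genes. RefSeq promoter windows (GRCh38.p14) matched 50 of the 61 genes. Each line holds 10 bases before the annotated start and 20 from it, on the coding strand, with the pyrimidine run from the start base in capitals.
EEF1A1, chr6:73521013-73521042, minus strand: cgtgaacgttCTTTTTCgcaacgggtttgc
EEF2, chr19:3985444-3985473, minus strand: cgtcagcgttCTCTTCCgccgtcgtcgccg
EEF1B2, chr2:206159885-206159914, plus strand: ctcttcgggtCCTTTTTCCTCTCTTCagcg
EIF3K, chr19:38619178-38619207, plus strand: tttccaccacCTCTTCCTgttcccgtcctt
EIF3F, chr11:7987327-7987356, plus strand: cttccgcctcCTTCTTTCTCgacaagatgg
EIF3B, chr7:2354817-2354846, plus strand: tcgcacgcacatggctgggctgtagccgtc
EIF2B2, chr14:75002911-75002940, plus strand: cgcccgccccggaagtgcaaactgtgtggt
EIF5A2, chr3:170908618-170908647, minus strand: cccgtctcttggaactgccgcggccgccac

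A TOP-like start was counted where the start base is C and the run of C or T from it spans at least 5 bases on the coding strand. It was found in 12 of 66 promoter windows of the factor genes (18.2%), in 1429 of 35116 windows of all genes (4.07%) and in 48 of 85 windows of cytosolic ribosomal protein genes (56.5%). The 12 genes are EEF1A1, EEF1B2, EEF2, EIF2A, EIF2D, EIF2S3, EIF3D, EIF3F, EIF3K, EIF3M, EIF4A2 and EIF4B. EEF1B2 has another annotated start with no such run. Of the 12, 1 was called higher and 4 lower, with a median log2 change of −0.10. Of the 32 tested genes with another start, 4 were called higher and 7 lower, with a median of −0.03. With quantile normalization the medians of these 12 and 32 genes were 0.0086 and 0.0093. They were 0.036 and 0.10 with total reads, and 0.098 and 0.16 with TPM. Over all tested genes the medians were −0.04 for 640 genes with a TOP-like start, 31.2% of them called lower, and 0.00 for 7789 others, 21.7% of them called lower. EIF3K, which fell, and EIF3F, which rose, both have such a run.

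**Figure D1:**
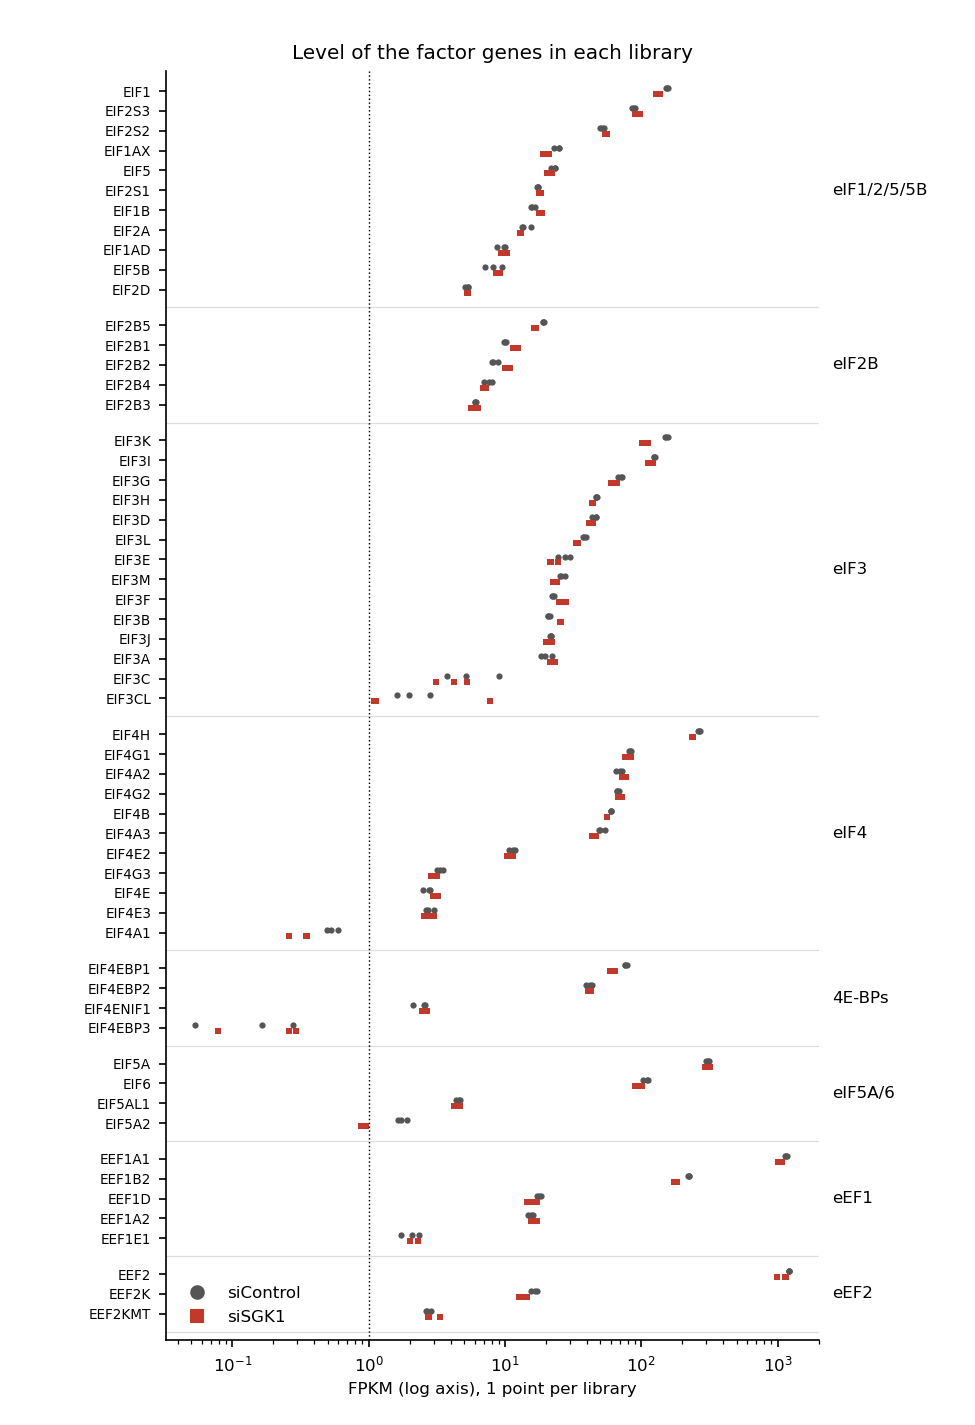
FPKM of each factor gene with a mean above 0.05 in each of the 6 libraries, on a log axis, grouped by role and ordered by mean level (grey circles siControl, red squares siSGK1). EEF2 and EEF1A1 lie near 1100 FPKM, EIF5A2 near 1, and EIF3C and EIF3CL spread more than their neighbours.

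Mean levels of the tested genes, per gene length, ran from 1.33 to 1155 FPKM. EEF2 and EEF1A1 ranked 34th and 36th among all tested genes, with means over the 6 libraries of 1155 and 1095 FPKM. EIF5A followed at 308 FPKM (rank 150) and the helicase cofactor EIF4H at 252 (rank 181). EEF2 lay above EEF1A1 in every library except siSGK1 replicate 3 (996 against 1004 FPKM). In siControl EEF2 ran from 1214 to 1219 FPKM and EEF1A1 from 1130 to 1166. In siSGK1 their ranges overlapped (996 to 1161 and 1004 to 1068 FPKM). The 5 eIF2B subunits were among the low factors, with means from 5.98 to 17.8 FPKM. The tested eIF3 genes ran from 2.74 FPKM (EIF3CL) to 130 (EIF3K), with a median of 24.9. EIF3CL is a copy of EIF3C, and their reads could not be separated. The gene lengths used for FPKM ran from 1725 bases (EIF3I) to 9431 (EIF3F), so this spread is no measure of unequal subunit amounts. Isoforms known for restricted tissues lay below their paralogues: EEF1A2 had a mean of 15.8 FPKM against 1095 for EEF1A1, and EIF5A2 had 1.33 against 308 for EIF5A. Among the 11945 tested genes EEF1A2 still had rank 2901, and EIF5A2 had rank 11050.

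**Figure D2:**
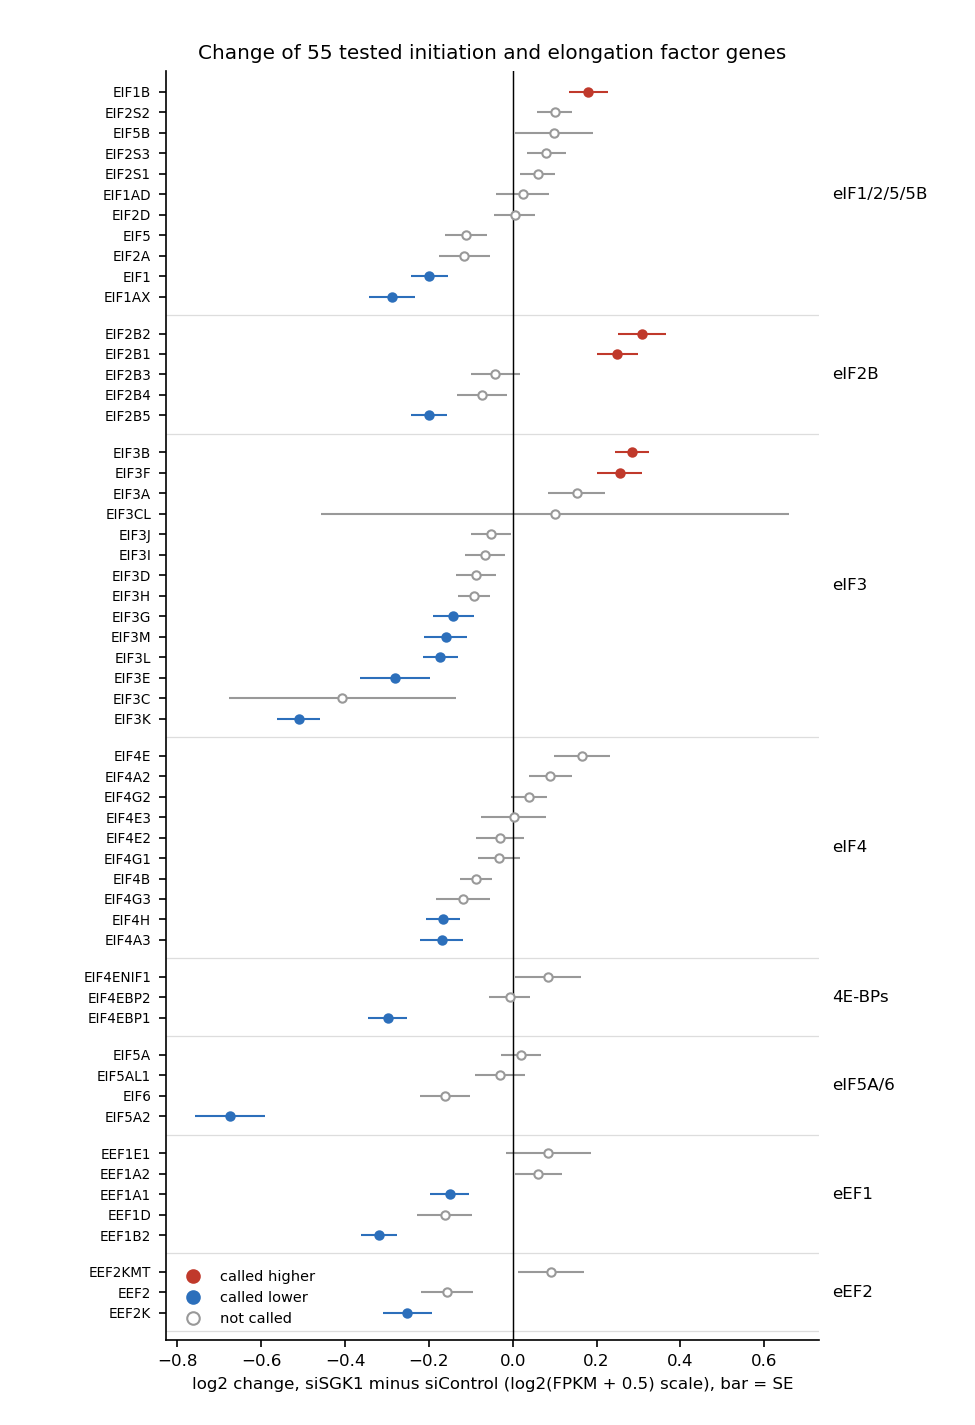
Log2 change (siSGK1 minus siControl, on the log2(FPKM + 0.5) scale) of the 55 tested genes by role, with bars for the SE of the limma fit. Filled red points are the 5 genes called higher, filled blue points the 15 called lower and open points the rest; EIF5A2 lies lowest at −0.67 and EIF2B2 highest at 0.31.

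Among the 11 tested genes for start codon choice and the initiator tRNA complex, 1 was called higher and 2 lower. EIF1AX, the X-linked gene for eIF1A (chromosome X, 20124518 to 20141844), measured 23.0, 24.9 and 24.8 FPKM in siControl and 19.1, 21.0 and 19.2 in siSGK1. The groups did not overlap, and EIF1AX fell to 81.6% of the control mean (log2 change −0.29, SE 0.05, adjusted p = 0.0037). EIF1AX was not called with scaling to total reads (−0.15, adjusted p = 0.082) or TPM (−0.09, adjusted p = 0.29). EIF1, whose protein enforces stringent start codon choice, measured 153, 157 and 152 FPKM in siControl and 136, 129 and 138 in siSGK1 (log2 change −0.20, SE 0.04, adjusted p = 0.0072). With scaling to TPM the change of EIF1 was 0.00. The paralogue EIF1B went the other way, from 16.0 ± 0.4 to 18.2 ± 0.6 FPKM (SD, n = 3; log2 change 0.18, SE 0.05, adjusted p = 0.014). EIF1B was no longer called without siControl replicate 3 (adjusted p = 0.065) or without siSGK1 replicate 2 (0.054). The coding sequences of EIF1 and EIF1B are 82.0% identical. The 3 subunits of eIF2 itself were not called with the deposited scaling: EIF2S1 (alpha) averaged 17.3 and 18.1 FPKM, EIF2S2 (beta) 51.7 and 55.4, and EIF2S3 (gamma) 87.9 and 93.0, in siControl and siSGK1. In that order, all 3 were called higher with total reads (0.20, 0.24 and 0.22, adjusted p = 0.0057, 0.00095 and 0.0083). With TPM they were also called higher (0.26, 0.30 and 0.28, adjusted p = 0.0016, 0.00028 and 0.0028). Quantile normalization called only EIF2S2 of them (0.18, adjusted p = 0.0052).

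Of the 5 subunits of eIF2B, which exchanges GDP for GTP on eIF2, 2 were called higher and 1 lower. EIF2B1 (alpha) and EIF2B2 (beta), of the regulatory core that senses phosphorylated eIF2, were called higher, and EIF2B5 (epsilon), the catalytic subunit, was called lower. EIF2B2 (chromosome 14, 75002911 to 75012366) measured 8.94, 8.22 and 8.08 FPKM in siControl and 10.7, 10.1 and 10.9 in siSGK1 (log2 change 0.31, SE 0.06, adjusted p = 0.0030). EIF2B1 measured 10.004, 10.3 and 9.84 against 11.6, 12.004 and 12.5 FPKM (log2 change 0.25, SE 0.05, adjusted p = 0.0042). Every siSGK1 library lay above every control library for both genes. EIF2B5 measured 19.2, 19.2 and 18.9 FPKM in siControl and 16.6, 16.2 and 16.9 in siSGK1 (log2 change −0.20, SE 0.04, adjusted p = 0.0058), a call lost with scaling to total reads (−0.06, adjusted p = 0.20) and to TPM, where its change was 0.00. The other regulatory subunit, EIF2B4 (delta), averaged 7.56 and 7.15 FPKM, and EIF2B3 (gamma), the partner of epsilon, 6.07 and 5.89, and neither was called. EIF2B2 shares 23.6% of its exon bases with other genes and EIF2B1 15.6%.

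Within eIF3, the scaffold of the initiation complex, 2 of 14 genes were called higher and 5 lower. EIF3K (chromosome 19, 38619082 to 38636955), a small peripheral subunit, measured 152, 158 and 150 FPKM in siControl and 111, 101 and 110 in siSGK1. It fell to 70.1% of the control mean (log2 change −0.51, SE 0.05, adjusted p = 0.00014), and its change stayed between −0.54 and −0.31 over 15 alternatives. EIF3L, the subunit that pairs with EIF3K at the edge of the complex, fell less, from 38.2 ± 1.0 to 33.9 ± 0.6 FPKM (SD, n = 3; log2 change −0.17, SE 0.04, adjusted p = 0.011). EIF3L was not called once siControl replicate 3 was left out (adjusted p = 0.062), and its change was 0.03 with scaling to TPM. EIF3L shares 51.8% of its exon bases with other genes.

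EIF3B and EIF3F rose. EIF3B (chromosome 7, 2354086 to 2380745), a core subunit with an RNA recognition motif, measured 20.6, 21.3 and 20.7 FPKM in siControl and 25.7, 25.3 and 25.6 in siSGK1 (log2 change 0.28, SE 0.04, adjusted p = 0.00088). EIF3F (chromosome 11, 7970251 to 8001862), which forms a module with EIF3H and EIF3M, measured 21.98, 23.0 and 22.4 against 28.2, 25.1 and 27.6 FPKM (log2 change 0.26, SE 0.05, adjusted p = 0.0061). The groups did not overlap for either gene. Rows for pseudogenes of EIF3F held 8.16% as many reads as EIF3F. That share was 14.6% for EIF4E, 13.0% for EIF1AX, 6.90% for EIF2S2, 5.08% for EEF1A1 and 5.05% for EEF1B2.

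The other 3 lower calls of eIF3 did not hold in every fit without 1 library. EIF3G fell from 69.9 ± 2.1 to 63.3 ± 2.9 FPKM (SD, n = 3; log2 change −0.14, SE 0.05, adjusted p = 0.046) and EIF3M from 26.2 ± 1.1 to 23.4 ± 0.9 (log2 change −0.16, SE 0.05, adjusted p = 0.034). EIF3E measured 24.5, 27.6 and 30.2 FPKM in siControl and 24.6, 21.3 and 21.6 in siSGK1 (log2 change −0.28, SE 0.08, adjusted p = 0.027), and its groups overlap, as siSGK1 replicate 2 lies above siControl replicate 2. Among the 6 fits that each left out 1 library, the log2 change of EIF3G ran from −0.17 to −0.11 and its call held only without siSGK1 replicate 2 (adjusted p from 0.036 to 0.16). The change of EIF3M ran from −0.19 to −0.13 (adjusted p from 0.039 to 0.10) and that of EIF3E from −0.36 to −0.21 (adjusted p from 0.0095 to 0.086), and both calls held only without either replicate 2. With TPM the changes of EIF3G, EIF3M and EIF3E were 0.06, 0.04 and −0.08, and none was called. Among the subunits not called, EIF3A, the largest, averaged 20.1 and 22.4 FPKM, and EIF3I 125 and 119.

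EIF3C and its copy EIF3CL could not be separated. Their coding sequences are 100% identical over 2739 bases, so the division of reads between them is uncertain. EIF3C measured 9.02, 5.15 and 3.79 FPKM in siControl and 5.26, 4.23 and 3.14 in siSGK1. EIF3CL measured 2.82, 1.62 and 1.98 against 7.79, 1.13 and 1.10 FPKM. The single high value of EIF3CL, in siSGK1 replicate 2, sits in a library in which 39.6% of the reads of the pair fell on the copy, against 10.6% to 18.8% in the other 5. Reads were summed over the pair and scaled as RPM to the size-factor library sizes behind the deposited FPKM, not to total reads. These sums came to 71.7, 40.9 and 32.6 for the siControl libraries and 60.8, 33.1 and 25.3 for siSGK1 (exact permutation p = 0.6). In both groups the library numbered 2 was the highest and that numbered 4 the lowest.

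**Figure D3:**
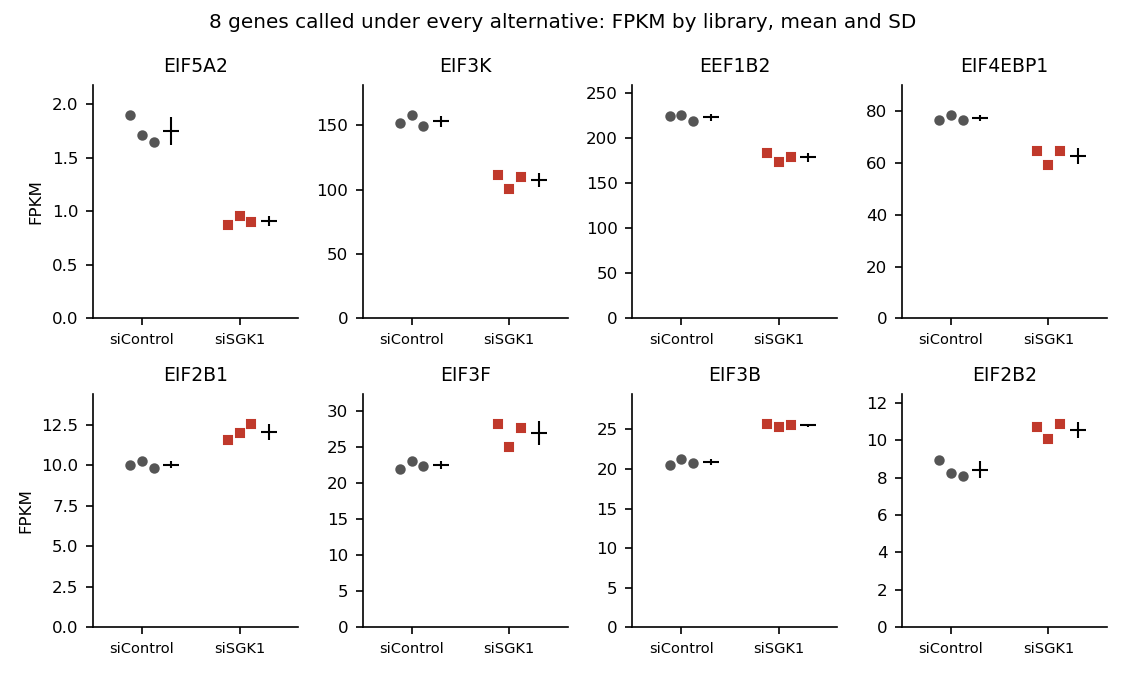
FPKM by library for the 8 genes whose call held under every alternative that gave them a value, on axes that start at 0 (grey circles siControl, red squares siSGK1, black bars mean and SD of 3 libraries). The groups do not overlap in any of the 8 panels, which held for 30 of the 55 tested factor genes, called or not. That share was not counted over all tested genes.

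The eIF4 group binds the cap and unwinds the leader, and 0 of its 10 tested genes were called higher and 2 lower by limma (1 and 3 at an unadjusted p below 0.05; 1 and 2 with limma-voom on the recovered reads). EIF4H, which stimulates the eIF4A helicase, measured 267, 271 and 261 FPKM in siControl and 234, 238 and 240 in siSGK1 (log2 change −0.17, SE 0.04, adjusted p = 0.011). Without siControl replicate 3 the adjusted p was 0.060. The sign of the EIF4H change turned with quantile normalization (0.02) and TPM (0.04). EIF4A3, the helicase of the exon junction complex, fell from 50.8 ± 2.6 to 45.1 ± 1.4 FPKM (SD, n = 3; log2 change −0.17, SE 0.05, adjusted p = 0.027). That call was lost in 4 of the 6 fits without 1 library (without siControl replicate 2 or 3, or siSGK1 replicate 2 or 4), and with TPM the change was 0.03. The cap-binding protein gene EIF4E was low, at 2.50, 2.76 and 2.81 FPKM against 2.98, 3.25 and 2.99, higher in each siSGK1 library but not called (log2 change 0.17, SE 0.07, adjusted p = 0.081). EIF4E was called higher with limma-voom (0.19, adjusted p = 0.02), total reads (0.29, adjusted p = 0.016) and TPM (0.34, adjusted p = 0.0074). The scaffold EIF4G1 averaged 82.3 and 80.6 FPKM.

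The 4E-binding proteins hold eIF4E away from eIF4G until mTORC1 phosphorylates them. EIF4EBP1 (chromosome 8, 38030341 to 38060365) measured 76.5, 78.4 and 76.6 FPKM in siControl and 64.5, 59.1 and 64.5 in siSGK1. It fell to 81.3% of the control mean (log2 change −0.30, SE 0.05, adjusted p = 0.0015). The change of EIF4EBP1 was −0.16 with scaling to total reads and −0.10 with TPM, and it stayed called. EIF4EBP2 averaged 41.6 ± 2.0 and 41.4 ± 1.1 FPKM (SD, n = 3; log2 change −0.01, SE 0.05, adjusted p = 0.92), and EIF4ENIF1, the transporter that carries eIF4E into the nucleus, 2.42 and 2.59. Of the 3 tested genes 0 were called higher and 1 lower by limma (0 and 1 at an unadjusted p below 0.05, and 0 and 1 with limma-voom).

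EIF5A2 had the largest log2 change of the 55 tested genes, at a level near the filter of 1 FPKM. Its mean over the 6 libraries was 1.33 FPKM, and it met the filter only through siControl. The size of its change moved with the pseudocount, from −0.87 at 0.1 to −0.53 at 1. EIF5A and EIF5A2 encode the factor that carries hypusine, a modified lysine, and helps ribosomes through difficult stretches. EIF5A2 (chromosome 3, 170888415 to 170908693) measured 1.90, 1.72 and 1.64 FPKM in siControl and 0.88, 0.96 and 0.90 in siSGK1, from 1282 reads over the 6 libraries. It fell to 52.0% of the control mean (log2 change −0.67, SE 0.08, adjusted p = 0.0004), and each siSGK1 library lay below each control. The abundant paralogue EIF5A measured 307, 313 and 296 FPKM in siControl and 318, 295 and 316 in siSGK1, with overlapping groups (log2 change 0.02, SE 0.05, adjusted p = 0.76). EIF5A was called higher with quantile normalization (0.20) and with scaling to total reads (0.16) or TPM (0.22). EIF5AL1, whose coding sequence is 98.9% identical to that of EIF5A, held 1.85% to 2.06% of the reads of the pair. EIF6, which keeps the ribosomal subunits apart, averaged 108 and 97.0 FPKM and was not called (adjusted p = 0.062).

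The 2 heptamers CTATGCA and TATGCAA, which overlap in 6 bases, were looked for on the mRNA strand of the longest 3′ UTR. They were picked in earlier work on these same libraries for their occurrence in genes that were lower, so their link with lower genes is no independent evidence. Either was present in 16.2% of 10272 tested genes with a 3′ UTR and in 7 of 54 tested factor genes (13.0%): EIF1AX, EIF3F, EIF4E, EIF4E2, EIF4H, EIF5A2 and EIF5AL1. EIF1AX, EIF4E and EIF5A2 hold both, and EIF4E was not called by limma with the deposited scaling. Of the 7, EIF3F was called higher and EIF1AX, EIF4H and EIF5A2 lower. Over all tested genes, 29.4% of those with a heptamer and 22.5% of those without one were called lower. Without the 7 genes, 4 of the other factor genes were called higher and 12 lower. The part of these letters in the changes was not tested.

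In elongation, 0 of the 5 tested eEF1 genes were called higher and 2 lower by limma (0 and 3 at an unadjusted p below 0.05, and 0 and 3 with limma-voom). EEF1B2 (chromosome 2, 206159585 to 206162928), the subunit that reloads eEF1A with GTP, measured 225, 226 and 219 FPKM in siControl and 184, 174 and 179 in siSGK1. It fell to 80.1% of the control mean (log2 change −0.32, SE 0.04, adjusted p = 0.00058), with no overlap, and stayed between −0.34 and −0.12 over the alternatives. EEF1B2 shares 17.4% of its exon bases with other genes. EEF1D, the other exchange subunit, averaged 17.8 and 15.8 FPKM and was not called (log2 change −0.16, SE 0.07, adjusted p = 0.080).

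The direction of the most abundant factors was set by the scaling. EEF1A1 (chromosome 6, 73515750 to 73523797) measured 1130, 1166 and 1159 FPKM in siControl and 1042, 1004 and 1068 in siSGK1 (log2 change −0.15, SE 0.05, adjusted p = 0.030). Its adjusted p rose to 0.061 to 0.12 in the 4 fits without siControl replicate 2, 3 or 4 or siSGK1 replicate 2. EEF2 (chromosome 19, 3976056 to 3985469) measured 1214, 1217 and 1219 FPKM against 1161, 996 and 1125 (log2 change −0.16, SE 0.06, adjusted p = 0.076), with siSGK1 replicate 3 the lowest. Without siSGK1 replicate 2, EEF2 was called lower (adjusted p = 0.040). With quantile normalization both were called higher, EEF1A1 by 0.29 (adjusted p = 0.00028) and EEF2 by 0.24 (adjusted p = 0.00019), and with TPM both changed by 0.05. Neither gene has a direction that holds across the scalings.

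**Figure D4:**
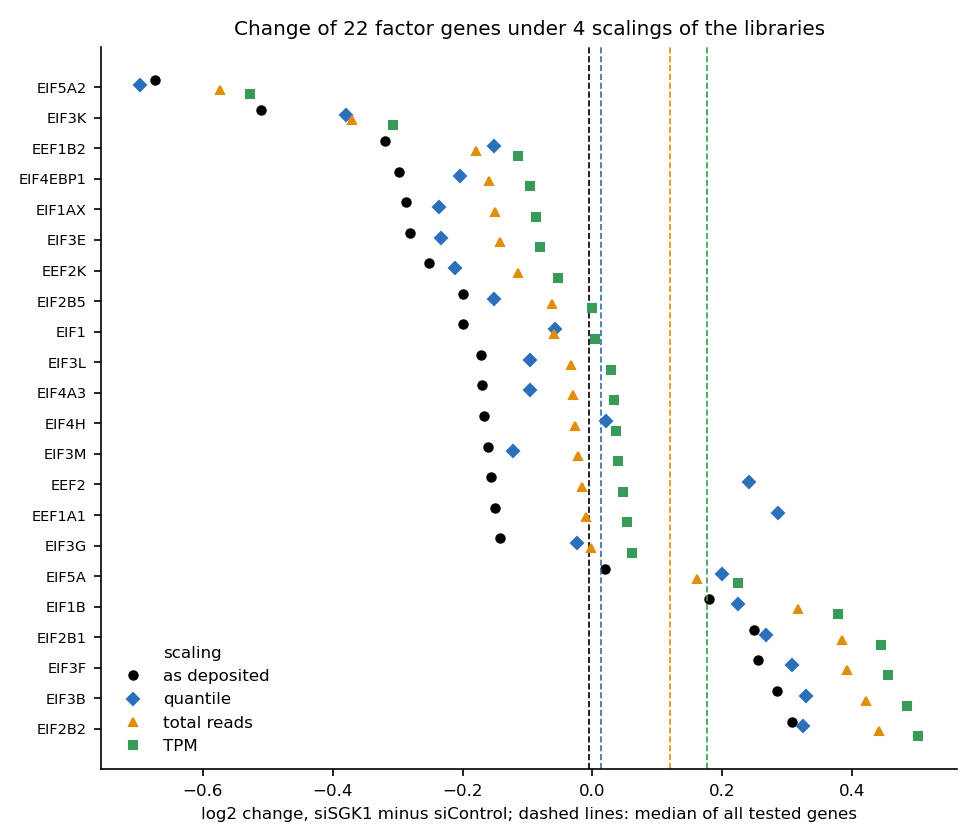
Log2 change (siSGK1 minus siControl) of the 20 called genes, EEF2 and EIF5A with the deposited FPKM (black circles), quantile normalization (blue diamonds), scaling to total reads (orange triangles) and TPM (green squares), with dashed lines at the median of all tested genes under each. EIF5A2, EIF3K, EEF1B2 and EIF4EBP1 stay below 0 and the 5 genes called higher stay above 0 under all 4 scalings, while EEF1A1 and EEF2 move from −0.15 and −0.16 to 0.29 and 0.24.

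As a share of all reads assigned to genes, the elongation factor genes took 1.18%, 1.20% and 1.21% in siControl and 1.20%, 1.16% and 1.20% in siSGK1 (exact permutation p = 0.4, two-sided). Their difference was −0.01 percentage points, and it was 0.02 as a share of summed FPKM. Counted as elongation factor genes were all members named EEF1 or EEF2. They include EEF2K, EEF2KMT and EEF1E1, and EEF1G among them held no reads. The eIF3 genes took 0.242%, 0.246% and 0.247% in siControl and 0.256%, 0.252% and 0.248% in siSGK1 (exact permutation p = 0.1, the smallest possible). All factor genes together took 2.08% ± 0.02 and 2.12% ± 0.01 (SD, n = 3; exact permutation p = 0.1). Mitochondrially encoded genes, which enter the denominator, took 4.16% to 4.40% of the reads for siControl and 3.38% to 3.66% for siSGK1. Counted outside those genes, the eIF3 share was 0.256% and 0.261% (exact permutation p = 0.2). The share of all factor genes was then 2.18% and 2.20% (exact permutation p = 0.2), and the groups overlapped.

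**Figure D5:**
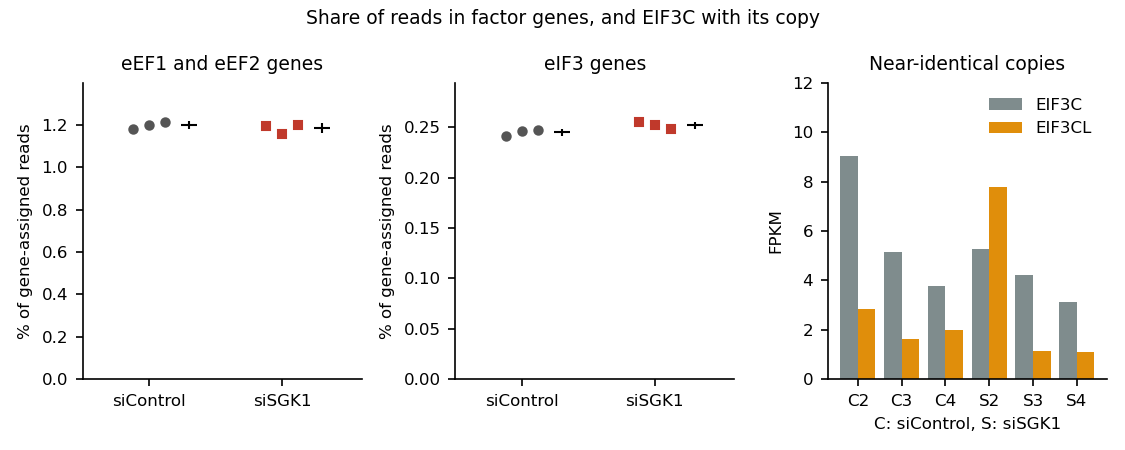
Left and middle, percent of gene-assigned reads in eEF1 and eEF2 genes and in eIF3 genes by library, on axes from 0 (grey circles siControl, red squares siSGK1, black bars mean and SD of 3 libraries); right, FPKM of EIF3C and EIF3CL in each library (C siControl, S siSGK1). The shares lie within 1.16% to 1.21% and 0.242% to 0.256%, and EIF3CL stands out at 7.79 FPKM in siSGK1 replicate 2.

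Of the factors that modify eEF2, the kinase EEF2K, which slows elongation by phosphorylating eEF2, fell. EEF2K measured 15.6, 16.6 and 17.1 FPKM in siControl and 14.4, 12.8 and 14.0 in siSGK1 (log2 change −0.25, SE 0.06, adjusted p = 0.010). With scaling to total reads or TPM the change kept its sign and was not called (TPM −0.05, adjusted p = 0.39). The methyltransferase gene EEF2KMT averaged 2.73 and 2.95 FPKM and was not called. Of EEF2, EEF2K and EEF2KMT, 0 were called higher and 1 lower by limma (0 and 2 at an unadjusted p below 0.05, and 0 and 2 with limma-voom).

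Below the level filter were 6 genes: EEF1E1-BLOC1S5, EEF1G, EIF1AY, EIF4A1, EIF4E1B and EIF4EBP3. EEF1G and the readthrough gene EEF1E1-BLOC1S5 held no reads. Of the exon bases of EEF1G, 99.9% also belong to AP002990.1, which averaged 0.75 FPKM, and all of those of EEF1E1-BLOC1S5 belong to other genes. EIF4A1, the main eIF4A helicase gene, measured 0.60, 0.49 and 0.53 FPKM in siControl and 0.26, 0.35 and 0.35 in siSGK1. It shares 48.6% of its exon bases with other genes, among them the readthrough gene SENP3-EIF4A1, and rows for its pseudogenes held 1711 reads against 398 on EIF4A1. EIF4EBP3 shares 73.4% with other genes. The values of these genes are uncertain to that extent.

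Genes that act on these factors were counted from lists. Over all 11945 tested genes, 17.9% were called higher and 22.7% lower, 40.6% either way. The share called was 54.5% of the modifiers, 30% of the mTORC1 list and 36.4% of the eIF4E and eIF4A regulators. It was 25% of the release and recycling factors, 12.5% of the poly(A)-binding list and 42.9% of the other factors. The lists are small, and none was tested as a set. Of 11 tested genes listed as modifiers of eEF1A, eEF2 and eIF5A, 2 were called higher (DPH3 and METTL21A) and 4 lower (DHPS, DPH1, DOHH and EEF1AKMT1). METTL21A counts here only because it was listed, as it is not an established modifier of these factors. DHPS, which makes hypusine on eIF5A, measured 27.9, 24.9 and 24.7 FPKM in siControl and 19.0, 17.1 and 18.4 in siSGK1 (log2 change −0.50, SE 0.06, adjusted p = 0.00047). DPH1, needed for the diphthamide residue of eEF2, fell from 7.78 ± 0.30 to 5.83 ± 0.51 FPKM (SD, n = 3; log2 change −0.39, SE 0.07, adjusted p = 0.0024). Of 10 genes of mTORC1 and its S6 kinase branch, 1 was called higher (DEPTOR) and 2 lower (MLST8 and RPS6KB1). RPS6KB1, the S6 kinase gene, measured 2.89, 3.18 and 3.47 FPKM in siControl and 2.02, 2.18 and 2.03 in siSGK1 (log2 change −0.51, SE 0.08, adjusted p = 0.00099). DEPTOR, which inhibits mTOR, rose from 13.0 ± 0.6 to 15.3 ± 0.3 FPKM (SD, n = 3; log2 change 0.23, SE 0.05, adjusted p = 0.0058).

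Of 9 tested eIF2 kinases, phosphatase subunits and partners, EIF2AK2 alone was called, by limma, and it was higher (0 lower; 1 higher and 0 lower also at an unadjusted p below 0.05 and with limma-voom). EIF2AK2, the kinase PKR that double-stranded RNA activates, measured 6.25, 6.98 and 6.65 FPKM in siControl and 9.22, 9.36 and 8.91 in siSGK1 (log2 change 0.44, SE 0.05, adjusted p = 0.00043). Among 8 release and recycling factors 2 were called higher (DENR and GSPT1) and 0 lower by limma (3 and 0 both at an unadjusted p below 0.05 and with limma-voom). DENR, which recycles small subunits and supports reinitiation, measured 10.7, 12.8 and 12.4 FPKM in siControl and 17.2, 17.8 and 15.9 in siSGK1 (log2 change 0.49, SE 0.07, adjusted p = 0.0012). Among 11 regulators of eIF4E and eIF4A, 1 was called higher (NCBP1) and 3 lower (CYFIP2, MKNK2 and PDCD4). CYFIP2, a partner of the translational repressor FMRP, fell from 7.83 ± 0.29 to 5.63 ± 0.44 FPKM (SD, n = 3; log2 change −0.44, SE 0.06, adjusted p = 0.0009), and the nuclear cap-binding gene NCBP1 rose from 11.9 ± 0.4 to 15.0 ± 0.4 (log2 change 0.32, SE 0.05, adjusted p = 0.0011).

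Among 8 poly(A)-binding proteins and partners, 1 was called higher and 0 lower by limma (4 and 1 at an unadjusted p below 0.05, and 2 and 0 with limma-voom): PABPC4 rose from 10.4 ± 0.03 to 12.2 ± 0.1 FPKM (SD, n = 3; log2 change 0.22, SE 0.04, adjusted p = 0.0037). Among 7 other factors, 2 were called higher (BZW1 and DHX9) and 1 lower (EEFSEC). Of 12 mitochondrial translation factors limma called 0 in either direction (0 higher and 1 lower both at an unadjusted p below 0.05 and with limma-voom). Of 9 tested factor genes known to have TOP mRNAs, 1 was called higher (EIF3F) and 3 lower (EEF1A1, EEF1B2 and EIF3E). Of 6 other TOP mRNAs, 1 was called higher (NAP1L1) and 2 lower: TPT1 fell from 110.7 ± 2.4 to 92.7 ± 0.5 FPKM (SD, n = 3; log2 change −0.26, SE 0.04, adjusted p = 0.0013) and RACK1 from 306 ± 7 to 261 ± 12 (log2 change −0.23, SE 0.05, adjusted p = 0.0061). With scaling to TPM neither TPT1 (−0.05) nor RACK1 (−0.02) was called.

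The calls of BZW1, DHX9, DOHH, DPH3, EEF1AKMT1, EEFSEC, GSPT1, METTL21A, MKNK2 and MLST8 were each lost when at least 1 library was left out. Those of CYFIP2, DENR, DEPTOR, DHPS, DPH1, EIF2AK2, NAP1L1, NCBP1, PABPC4 and RPS6KB1 held in all 6 fits without 1 library and under the 4 scalings. PDCD4 was called with the deposited scaling but not with quantile normalization, total reads or TPM.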

How the data were processed

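The deposited table holds FPKM per gene and library, made by the authors from polyA RNA libraries. Alignment and counting used HISAT2 2.0.5 and featureCounts 1.5.0-p3 after bcl2fastq 2.19, with hg19 given as the build, per the submitters' processing notes. Positions in the table match GRCh38, however (57 of the 61 genes have the same position in GENCODE 29), and are printed as GRCh38. Strandedness and the counting of multi-mapped reads are not known from the sources used here, so overlapping, antisense and near-identical genes may share reads. Deposited FPKM times gene length gave whole reads for 100% of values above 0 (tolerance 0.001), which gave the depth, the read shares and the reads for limma-voom. Among the called factor genes EIF5A2 rests on the fewest reads (1282 over the 6 libraries).

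The test was a two-sided limma fit (version 3.58.1, R 4.3.3) to log2(FPKM + 0.5), with moderated variances that follow the mean level and no block. Genes with a mean FPKM of 1 or more (11945) entered it, p-values were adjusted by Benjamini-Hochberg over all of them, and an adjusted p below 0.05 was the call. Such changes understate those of low genes. The fit was first run on simulated counts with few changed genes and known library sizes. That run cannot bear on how the libraries should be scaled. Coding sequences and 3′ UTRs (of at least 50 bases) came from GENCODE 29.

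The genes and lists were chosen with earlier results of these data known. Described in full by rule were, in each role, the gene with the smallest p, called genes whose log2 change was at least 0.3219 either way, and the gene with the highest mean, plus up to 2 genes of each list. EIF1B, EIF2B1, EIF3B, EIF3E, EIF3F, EIF3G, EIF3L, EIF3M, EIF4A3 and the other genes outside this rule were named after their values were seen. Alternatives were other pseudocounts (0.1 and 1), level filters, scalings, limma-voom, a replicate block, fits without 1 library, and leaving out genes with overlapping exons or, added after the data were seen, with a heptamer in the 3′ UTR.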

Additional observations from a re-analysis of the deposited data

How the results depend on the processing

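Over the alternatives, the values of the 20 called factor genes, EEF2 and EIF5A kept direction and side of the threshold 258 times, lost the call 54 times, gained it 5 times and changed sign 12 times. The causes were not tested. The calls of factor genes numbered 26 higher and 4 lower with TPM, 16 and 4 with total reads and 11 and 7 with quantile normalization, with medians of 0.15, 0.085 and 0.0008. Among the 22 tested genes without overlapping exons they numbered 2 and 8 (fewer genes; median −0.10), and at a mean FPKM of at least 5 the median was −0.0801. Leaving out 1 library gave 8 (without siControl replicate 3) to 17 lower calls (without siSGK1 replicate 2), 4 to 6 higher calls and medians from −0.0875 (without siSGK1 replicate 2) to −0.0435. As a share of summed FPKM the elongation factor difference was 0.0201 in place of −0.0145. Signs turned with TPM for EEF1A1 (0.0538), EEF2 (0.0478), EIF1 (0.0042), EIF3G (0.0606), EIF3L (0.0291), EIF3M (0.0399), EIF4A3 (0.0326) and EIF4H (0.0369), with quantile normalization for EEF1A1 (0.29), EEF2 (0.24) and EIF4H (0.0211), and for EIF5A without siControl replicate 4 (−0.0011; up to 0.0543 without siSGK1 replicate 3). EEF2 was called lower with limma-voom (adjusted p = 0.028). Same-numbered libraries did not deviate together (r of 0.12, 0.01 and −0.10), and not every library correlated best with its own number. With the replicate block 5 factor genes were called higher and 13 lower, with EEF1A1 (adjusted p = 0.11), EIF3G (0.087) and EIF3M (0.058) lost and EIF3C (−0.41, adjusted p = 0.011) gained. The count of all genes called stayed within 3286 to 6815. SGK1 and EIF5A2 have no value at a mean FPKM of at least 5. Depth limits EIF5A2, with 1282 reads, and the 6 genes below the level filter.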
